A study of Homo sapiens with 2 samples.

Results

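The genes described here are the 4500 small noncoding RNA genes on chromosomes 1-22 that GENCODE 44 types as snoRNA, scaRNA, miRNA or snRNA, of 4771 such genes on all sequences of that annotation. They were chosen by gene type alone: 1759 miRNA genes, 1800 snRNA genes, 893 snoRNA genes and 48 scaRNA genes. The data came from MNase-seq of ARPE-19 in normal culture and in interphase, a standard human line grown from retinal pigment epithelium. MNase-seq digests chromatin with micrococcal nuclease, which cuts linker DNA and leaves the DNA wrapped on a nucleosome, so a called position marks a nucleosome fragment. The study has 2 samples, numbered as batches 1 and 2, in 1 group with no treated or control arm. All values below come from 1 deposited list of called positions on hg38 that names neither batch, so there is no value per sample, no spread between batches and no test between conditions.

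On chromosomes 1-22 the list holds 2558490 distinct positions, or 0.928 per kb. Of these, 7350 lie within 1000 bp of the middle of a small noncoding RNA gene and 589 within 75 bp. The read depth behind the list is unknown, and the cell type could not be checked against marker genes because positions carry no expression level. Intervals are exact at 95% and cover counting error only, taking positions as independent, although windows of 667 genes overlap a neighbour's.

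Small nucleolar RNAs guide chemical modification of ribosomal RNA, box C/D members for methylation and box H/ACA members for pseudouridine, and most are cut from introns of host transcripts. Small Cajal body RNAs guide the same modifications on spliceosomal RNAs. MicroRNAs are cut from hairpins and repress messenger RNAs that match their seed. Small nuclear RNAs form the spliceosome: U1, U2, U4 and U5 are made by RNA polymerase II, and U6 and the 7SK regulator RNA by RNA polymerase III, from promoters that lie before the gene. The genome also carries many copies of snRNA genes, and most symbols in the annotation are such copies. Of the 1703 genes with an RNU symbol or the symbol RN7SK, 1679 have a symbol ending in P, the suffix for a pseudogene, and 24 do not. The RNU set is therefore chiefly a set of copies, and whether any is transcribed in these cells was not measured.

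Example sequences are printed first, 5′ to 3′ on the gene's strand from hg38. Apart from RNU1-1, each was picked because it holds a call in the gene or in a stretch described below. The places of these calls are therefore illustrations only. The annotated U1 gene RNU1-1 (chr1:16514122-16514285, minus strand, intergenic) is shown for comparison with the U1 copies that follow.
RNU1-1: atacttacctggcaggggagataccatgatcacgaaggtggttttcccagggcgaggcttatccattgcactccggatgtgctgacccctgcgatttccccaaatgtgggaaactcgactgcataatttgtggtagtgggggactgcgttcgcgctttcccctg
In the copies, the capital letter marks the base of a called position. The U6 copies are RNU6-723P (chr1:48344209-48344348, plus strand, intronic), RNU6-418P (chr1:205595041-205595180, plus strand, intronic) and RNU6-649P (chr2:4945277-4945416, plus strand, intergenic), each shown with the flanking bases after its 3′ end. Each copy is annotated with 107 bases, and the calls lie 123, 105 and 113 bases after the first base, so near the 3′ end.
RNU6-723P: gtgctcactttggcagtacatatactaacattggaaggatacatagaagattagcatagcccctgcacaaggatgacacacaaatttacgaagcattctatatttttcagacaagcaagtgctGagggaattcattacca
RNU6-418P: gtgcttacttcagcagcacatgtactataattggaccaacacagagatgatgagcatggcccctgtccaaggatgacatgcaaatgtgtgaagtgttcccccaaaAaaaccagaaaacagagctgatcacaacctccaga
RNU6-649P: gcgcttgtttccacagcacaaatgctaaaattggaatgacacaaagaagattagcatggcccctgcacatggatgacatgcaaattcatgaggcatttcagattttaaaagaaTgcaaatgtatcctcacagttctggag
The U1 copies are RNU1-74P (chr1:232832017-232832187, minus strand, intergenic), RNU1-38P (chr2:85728194-85728337, minus strand, intergenic) and RNU1-63P (chr4:67429591-67429754, minus strand, intronic). Their calls lie 37, 37 and 39 bases after the first base, inside the copy.
RNU1-74P: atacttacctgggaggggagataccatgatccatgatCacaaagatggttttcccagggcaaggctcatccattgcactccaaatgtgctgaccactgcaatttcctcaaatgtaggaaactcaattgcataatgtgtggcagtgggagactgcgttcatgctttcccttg
RNU1-38P: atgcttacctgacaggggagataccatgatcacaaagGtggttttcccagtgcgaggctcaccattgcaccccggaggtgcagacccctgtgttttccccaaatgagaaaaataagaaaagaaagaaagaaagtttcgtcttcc
RNU1-63P: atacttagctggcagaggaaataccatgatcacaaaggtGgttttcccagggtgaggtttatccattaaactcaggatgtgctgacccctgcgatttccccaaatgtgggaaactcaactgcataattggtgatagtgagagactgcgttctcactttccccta
A U3 copy (chr1:218541690-218541899, minus strand, intergenic) carries its call 93 bases after its first base.
U3: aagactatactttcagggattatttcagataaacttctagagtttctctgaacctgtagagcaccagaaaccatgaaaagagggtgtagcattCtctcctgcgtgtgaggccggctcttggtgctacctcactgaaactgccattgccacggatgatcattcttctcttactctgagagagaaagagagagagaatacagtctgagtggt
In the box C/D snoRNAs, capitals mark box C (TGATGA) near the 5′ end and box D (CTGA) near the 3′ end. SNORD53 lies in an intron of WDR43 (chr2:28927067-28927144, plus strand), SNORD94 in an intron of PTCD3 (chr2:86135870-86136006, plus strand) and SNORD67 in an intron of CKAP5 (chr11:46762389-46762499, minus strand), each on its host's strand. A call in each lies 44, 25 and 34 bases after the gene's first base.
SNORD53: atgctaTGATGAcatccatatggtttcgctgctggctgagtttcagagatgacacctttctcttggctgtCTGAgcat
SNORD94: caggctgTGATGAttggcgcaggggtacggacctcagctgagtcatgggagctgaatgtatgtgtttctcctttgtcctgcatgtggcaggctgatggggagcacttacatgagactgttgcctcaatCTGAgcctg
SNORD67: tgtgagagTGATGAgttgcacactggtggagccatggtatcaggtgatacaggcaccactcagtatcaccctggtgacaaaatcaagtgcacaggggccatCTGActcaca

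snoRNA and snRNA genes differed in how dense their middles were against their flanks. A gene's middle was taken as the 75 bp on either side of its midpoint and its flanks as the stretches from 500 to 1000 bp on both sides. snoRNA middles carried 1.03 positions per kb (95% interval 0.866 to 1.22) and their flanks 0.645 (0.593 to 0.700), so the middle was 1.60-fold higher, a log2 ratio of 0.68 (0.40 to 0.95). The middle was the denser on 18 of 22 chromosomes. snRNA genes ran the other way, with 0.593 per kb in the middle (0.504 to 0.692) against 0.887 in the flanks (0.844 to 0.932), a log2 ratio of -0.58 (-0.83 to -0.35), and the middle was the sparser on 19 of 22 chromosomes.

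miRNA genes carried 1.11 per kb in the middle (0.991 to 1.25) and 0.991 in the flanks (0.945 to 1.04). Their log2 ratio of 0.17, with an interval that included 0 (-0.01 to 0.35), lay between those of snoRNA and snRNA genes. The 48 scaRNA genes had only 12 positions in their middles, and their log2 ratio of 0.77 had an interval from -0.28 to 1.70. The snoRNA ratio exceeded the miRNA ratio by 0.51 (0.17 to 0.84) and the snRNA ratio by 1.26 (0.89 to 1.62) on the log2 scale. The miRNA ratio exceeded the snRNA ratio by 0.75 (0.45 to 1.06).

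The ratios were also computed with a GC expectation, in which a base counts by how dense positions are across the genome at its local GC content. Against it the snoRNA log2 ratio was 0.65 (0.37 to 0.92), close to the uncorrected value, and the miRNA ratio was 0.10 (-0.08 to 0.28). The snRNA ratio was -0.12 (-0.36 to 0.12), so its interval then included 0. The median GC content of the gene was 40.2% for snRNA, 43.7% for snoRNA and 51.8% for miRNA genes. The difference between snoRNA and snRNA remained above 0 after the correction, at 0.77 (0.40 to 1.13), and that between miRNA and snRNA did not, at 0.22 (-0.08 to 0.53).

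**Figure D1:**
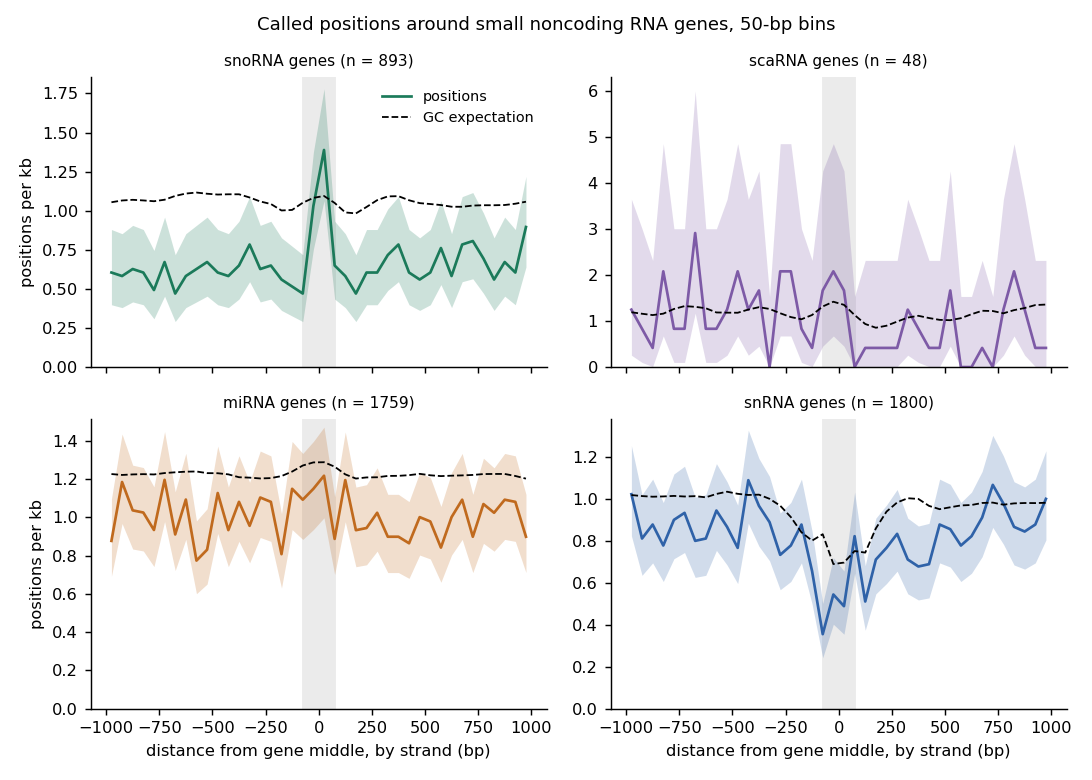
Called positions per kb (y axis) by distance from the gene middle in bp, along the gene's strand (x axis), in 50-bp bins for snoRNA, scaRNA, miRNA and snRNA genes. Solid lines are counts with 95% Poisson bands, dashed lines the GC expectation and the grey bar the middle. The snoRNA panel peaks at 1.39 per kb in the 50 bp after the midpoint, the snRNA panel falls to 0.356 per kb from 100 to 50 bp before it, and each panel has its own y axis.

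The shape of the profiles was uneven within the middle. snoRNA density was 1.03 per kb in the 50 bp before the midpoint (0.754 to 1.37) and 1.39 in the 50 bp after it (1.06 to 1.78), and it was 0.470 (0.291 to 0.719) from 100 to 50 bp before it. snRNA density was lowest from 100 to 50 bp before the midpoint, at 0.356 per kb (0.243 to 0.502), where the GC expectation was 0.832. It was 0.822 per kb (0.646 to 1.03) from 50 to 100 bp after the midpoint, where the GC expectation was 0.751. It was again below its expectation from 0 to 50 bp after the midpoint, at 0.489 (0.355 to 0.656) against 0.697, and from 100 to 150 bp after it, at 0.511 (0.374 to 0.682) against 0.744. The bin from 50 to 100 bp after the midpoint thus stood between sparser bins.

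Counted by gene, 13.9% of snoRNA genes (124 of 893, Wilson interval 11.8 to 16.3%) had at least 1 position in the middle. The share was 14.3% for miRNA (12.8 to 16.0%), 20.8% for scaRNA (11.7 to 34.3%) and 8.22% for snRNA genes (7.04 to 9.58%). Of all 150-bp windows of chromosomes 1-22, 12.7% held a position. The intervals of snoRNA and scaRNA genes included that background, the miRNA interval began just above it, and the snRNA share lay below it. The higher snoRNA middle was thus a contrast with sparse flanks and not with the genome at large, whose 0.928 per kb lies inside its interval. Within 1000 bp of the middle, 38.5% of snoRNA, 28.2% of miRNA, 29.3% of snRNA and 25% of scaRNA genes had no position. The share of all genomic windows of that size without a position was not computed, so these shares are a description only.

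Each type was then divided by where its genes lie. A gene was called intronic when it lay wholly inside a protein-coding or long noncoding gene without touching an exon, and intergenic when it overlapped none. Intronic snoRNA genes (468) carried 1.13 positions per kb in the middle (0.891 to 1.40) and 0.727 in the flanks (0.651 to 0.808), a log2 ratio of 0.63 (0.26 to 0.99). Intergenic snoRNA genes (186) carried 1.33 (0.934 to 1.83) and 0.828 (0.702 to 0.970), a log2 ratio of 0.68 (0.12 to 1.21). The ratios of both snoRNA classes differed by -0.05 (-0.70 to 0.62). Without chromosome 1 the intergenic snoRNA ratio was 0.57 with an interval that included 0 (-0.03 to 1.13).

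Intronic snRNA genes (1052) carried 0.475 per kb in the middle (0.374 to 0.596) against 0.874 in the flanks (0.818 to 0.932), a log2 ratio of -0.88 (-1.24 to -0.54). Intergenic snRNA genes (659) carried 0.769 (0.606 to 0.962) against 0.912 (0.841 to 0.988), a log2 ratio of -0.25 (-0.61 to 0.10). Intronic minus intergenic came to -0.63 (-1.14 to -0.13), and to -0.51 (-1.01 to -0.004) against the GC expectation. This difference rested in part on 1 chromosome, since without chromosome 15 it was -0.48 (-0.99 to 0.04). Intronic snRNA genes stayed below 0 against the GC expectation, at -0.35 (-0.71 to -0.01), and intergenic ones did not, at 0.16 (-0.20 to 0.51).

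Intronic miRNA genes (1082) had a log2 ratio of 0.19 (-0.04 to 0.42) and intergenic ones (261) of 0.22 (-0.23 to 0.64), and both intervals included 0. The intronic miRNA interval excluded 0 without chromosome 14, at 0.26 (0.02 to 0.49), and with a middle of 50 bp on either side, at 0.31 (0.03 to 0.57). Against the GC expectation the intronic miRNA ratio was 0.097, with an interval that included 0 (-0.14 to 0.33). Intronic scaRNA genes (26) had 7 positions in their middles and intergenic ones (15) had 5, with log2 ratios of 0.54 (-0.88 to 1.75) and 1.74 (-0.16 to 3.42), too few to place either.

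**Figure D2:**
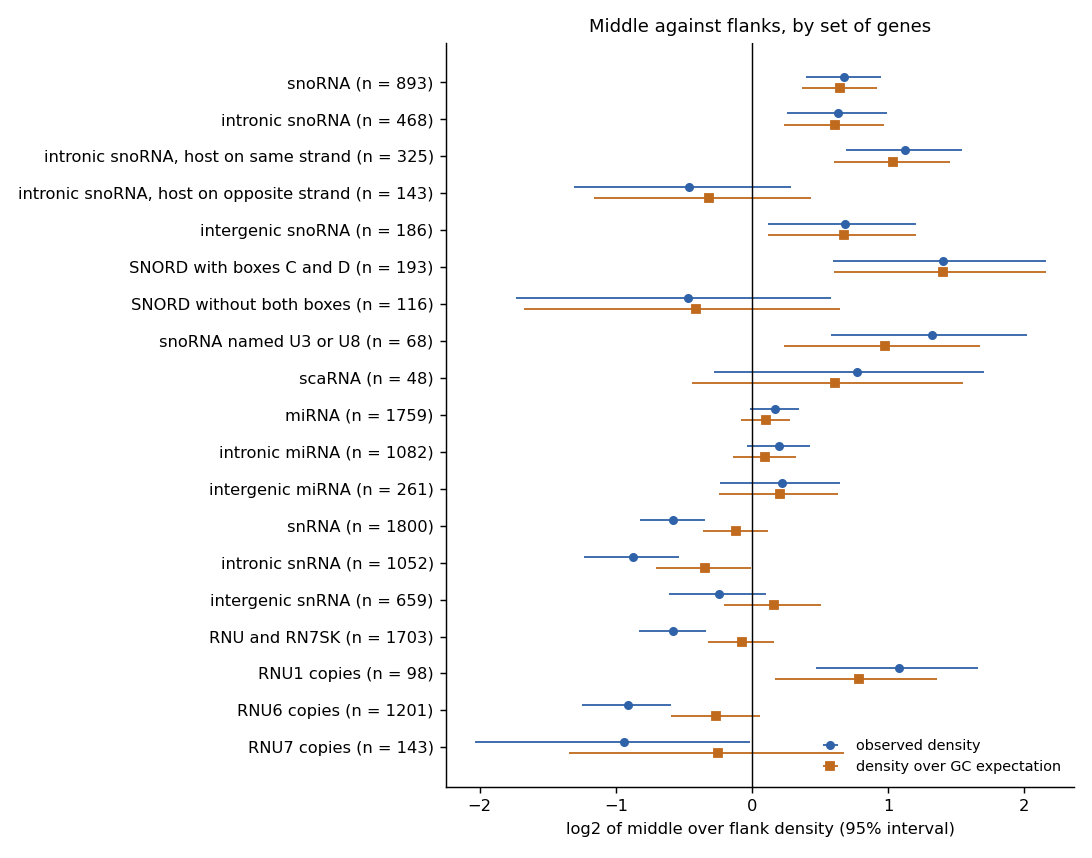
Log2 ratio of middle to flank density (x axis) for sets of small noncoding RNA genes (y axis, with the number of genes), as points with 95% intervals. Circles use the number of bases and squares the GC expectation. snoRNA sets lie right of 0 except those with an opposite-strand host or without both boxes, and the snRNA sets move toward 0 with the GC expectation, while RNU1 copies stay right of 0 at 0.78.

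The set defined by RNU and RN7SK symbols was compared with intronic snoRNA genes, most of which (325 of 468) have a host on their own strand from whose introns they can be cut. The 1703 RNU and RN7SK genes carried 0.607 positions per kb in the middle (0.515 to 0.710) and 0.907 in the flanks (0.862 to 0.953), a log2 ratio of -0.58 (-0.83 to -0.34), with the middle sparser on 18 of 22 chromosomes. Against the GC expectation the RNU and RN7SK ratio was -0.075 (-0.32 to 0.16), so its interval included 0. The uncorrected ratio lay below the intronic snoRNA ratio by 1.21 on the log2 scale (a difference of -1.21, -1.65 to -0.76). Against the GC expectation the difference was -0.68 (-1.12 to -0.24). With intronic RNU and RN7SK genes only (999), it was -1.52 (-2.03 to -1.005), and -0.92 (-1.44 to -0.41) against the GC expectation. Since nearly all RNU genes here are pseudogene copies, this compares copies of snRNA genes with snoRNA genes, and it does not compare active polymerase promoters with introns.

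The families within the RNU set did not share 1 pattern. RNU6 copies (1201) carried 0.472 per kb in the middle (0.377 to 0.583) against 0.888 in the flanks (0.836 to 0.943), a log2 ratio of -0.91 (-1.25 to -0.59), which was -0.26 (-0.60 to 0.06) against the GC expectation. RNU7 copies (143), of the RNA that processes histone messages, had a log2 ratio of -0.94 (-2.04 to -0.02), or -0.25 (-1.35 to 0.67) against the GC expectation. RNU1 copies (98) ran opposite, with 2.24 per kb in the middle (1.55 to 3.15) and 1.06 in the flanks (0.867 to 1.29), a log2 ratio of 1.08 (0.47 to 1.66). For RNU1 copies the ratio was 0.78 (0.17 to 1.36) against the GC expectation. A position in the middle was held by 27 of 98 RNU1 copies, or 27.6% (19.7 to 37.1%), against 12.7% of all 150-bp windows. RNU1 exceeded RNU6 by 1.99 (1.29 to 2.67), and by 1.05 (0.35 to 1.72) against the GC expectation. RNU2 copies (67) at -0.47 (-1.65 to 0.53) and RNU4 copies (84) at -0.50 (-1.87 to 0.62) could not be told from 0. The split into families was made after the values were seen.

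Measured from the gene's 5′ end, RNU6 copies showed a sparse stretch before the gene and a short dense stretch of 25 bases at its 3′ end. In the 50 bp before the first base, 1201 copies carried 16 positions, or 0.266 per kb (0.152 to 0.433), which is 0.344 of the GC expectation (0.197 to 0.559). The first 100 bases carried 42 positions, or 0.350 per kb, 0.601 of the expectation (0.433 to 0.813). From 100 to 125 bases, where the U6 sequence ends, 34 positions fell in 34 copies on 17 chromosomes, or 1.13 per kb (0.784 to 1.58), 1.81 times the expectation (1.25 to 2.53). Over the wider stretch from 100 to 150 bases the 49 positions came to 1.23 times the expectation, with an interval that included 1 (0.913 to 1.63). RNU6-723P, RNU6-418P and RNU6-649P, printed above, were picked for a call from 100 to 125 bases, and theirs lie at 123, 105 and 113 bases. The stretch from 100 to 125 bases had a GC content of 23.3%, and from 75 to 100 bases only 5 positions were called.

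A run of 8 A bases (AAAAAAAA, on the gene's strand) within 50 bp after the 3′ end was found in 164 RNU6 copies, or 13.7%, against 1.68% of 9000 windows of 50 bp lying 750 bp before or after the 5′ ends of all the genes. Copies with the run carried 4 positions from 100 to 150 bases, 0.488 per kb (0.133 to 1.25), and copies without it 45, 0.868 per kb (0.633 to 1.16). These intervals overlap widely. The windows from the 5′ end and the A run were chosen after the values were seen.

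In RNU1 copies the dense stretch lay near the 5′ end, from 25 to 50 bases, with 13 positions in 13 copies on 9 chromosomes, or 5.31 per kb (2.83 to 9.07), 3.91 times the GC expectation (2.08 to 6.68). The 3 RNU1 copies printed above were picked from these 13. The 50 bp before RNU1 copies carried 4 positions, 0.747 of the expectation (0.204 to 1.91). snoRNA genes named U3 or U8 (68), a pair of box C/D RNAs that act in cutting ribosomal RNA rather than in modifying it, carried 21 positions in 19 genes from 75 to 150 bases, or 4.12 per kb (2.55 to 6.29), 3.39 times the expectation (2.10 to 5.18). Their first 75 bases carried 2 positions, 0.379 of the expectation (0.0459 to 1.37). Over the whole middle these U3 and U8 genes had a log2 ratio of 1.32 (0.58 to 2.02), or 0.98 (0.24 to 1.68) against the GC expectation.

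**Figure D3:**
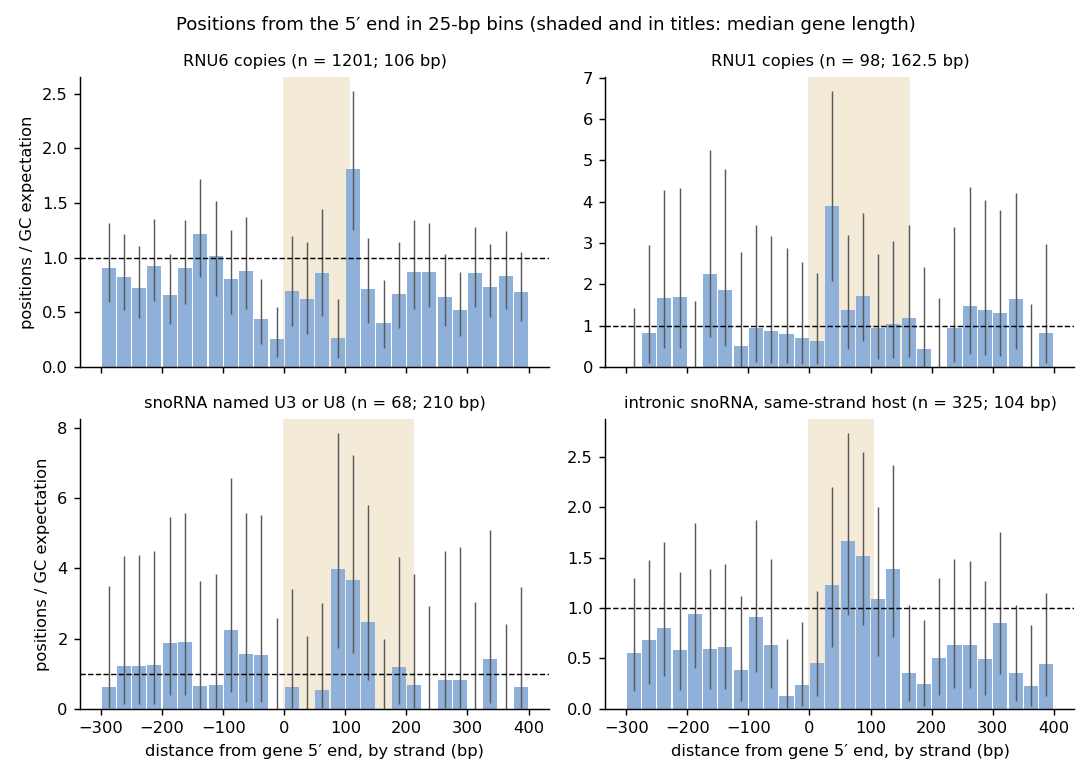
Positions divided by the GC expectation (y axis) in 25-bp bins by distance from the gene's 5′ end in bp (x axis), for RNU6 copies, RNU1 copies, snoRNA genes named U3 or U8 and intronic snoRNA genes with a host on the same strand. Bars carry 95% Poisson intervals, the dashed line marks 1 and the shading the median gene length. RNU6 copies stand at 1.81 from 100 to 125 bp and RNU1 copies at 3.91 from 25 to 50 bp, and each panel has its own y axis.

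The 24 RNU and RN7SK genes without the pseudogene suffix had no position in the middle, which allows up to 0.833 per kb at 3 counts over the set and has an exact upper limit of 1.02 per kb, and 13 in the flanks, or 0.542 per kb (0.288 to 0.926). Only 54.4% of their middle bases would lie in a 150-bp fragment whose 50-base ends each occur once in the genome, so part of this absence cannot be told apart from reads that match several places. In RNU1-1, RNU1-2, RNU1-3, RNU1-4, RNU2-1 and RN7SK that share was 0%. The middle was 100% unique in RNU11, RNU12, RNU7-1, RNU5F-1 and RNU4ATAC, and no position was called there. For these 5 genes the GC expectation within 500 bp, a wider window than the middle, was only 1.05 to 1.50 positions each. Over the middles of all 24 genes together it was 4.99 positions. Empty middles in so few genes carry a wide counting error, and their cause was not tested.

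Of 16 polymerase II snRNA genes, 6 had no position within 1000 bp and the other genes had 19 in all. No genome-wide share of empty windows of that size was computed, so this count and those of the next paragraph are a description only. The share for all snRNA genes is given above. RNU5B-1 (chr15:65304677-65304792) had 3, at -938, -898 and -98 bp from its middle. RNU5F-1 (chr1:44721786-44721902) had 3, at -975, -80 and 146 bp. RNU4-1 (chr12:120293097-120293237) had 2, at -397 and -165 bp, and RNU5A-1 (chr15:65296051-65296166) had 2, at -441 and -402 bp. RNU4-2, RNU5D-1, RNU4ATAC, RNU1-3, RNU1-4 and RNU2-1 had none. All positions of the U4 and U5 genes but 1 lay before the gene, a pattern seen after the values were known, in 5 genes. RNU7-1, RNU11 and RNU12 had 1 position each, also before the gene but far from it, at -792, -998 and -812 bp. The 24 RNU and RN7SK genes without the pseudogene suffix together held 4 positions in the 250 bp before the gene and 4 in the 250 bp after it. The U1 genes differed: RNU1-1 had calls at -768, 658, 858 and 966 bp, and RNU1-2 at 874 bp.

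Of 7 polymerase III genes, RN7SK, RNU6-2 and RNU6-8 had no position within 1000 bp. RNU6-1 had 3, at 97, 119 and 145 bp after its middle and so past its 3′ end, and RNU6-7 had 2, at -919 and -491 bp. RNU6ATAC and RNU6-9 had 1 each, at -121 and -482 bp. RNU6-1 was the only U6 gene of the 5 with a call inside 200 bp. Its calls lay farther from the gene's 5′ end than the stretch from 100 to 125 bases where RNU6 copies were dense. From 150 to 175 bases the copies stood at 0.403 of the GC expectation (0.174 to 0.795). The 27 RNVU1 genes, variant U1 genes that mostly lie in repeated DNA around the centromere of chromosome 1, had 4 positions in the middle and 28 within 1000 bp, of which RNVU1-18 alone held 16. The middle of RNVU1-18 was 0% unique. For 20 of the 27 nothing was called within 1000 bp, and only 37.6% of their flank bases were unique in the sense above.

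**Figure D4:**
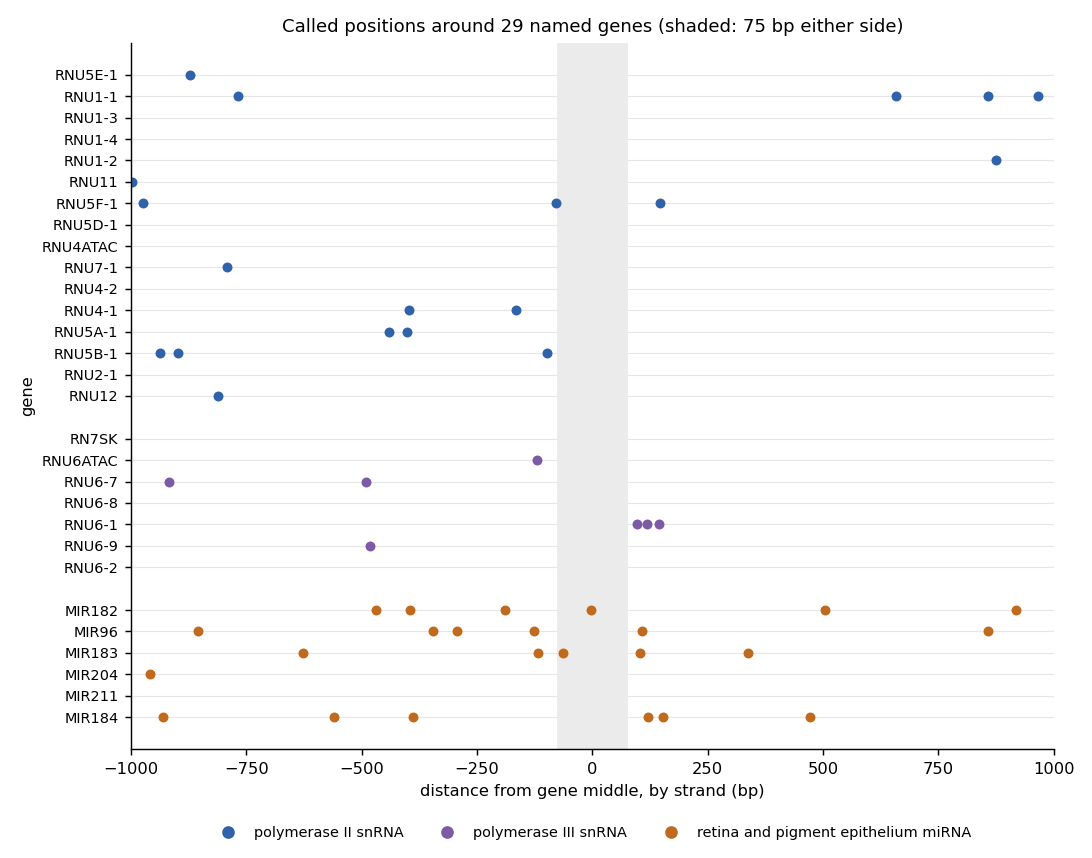
Each called position within 1000 bp (dots; x axis, distance from the gene middle in bp along the gene's strand) of 16 polymerase II snRNA genes, 7 polymerase III genes and 6 miRNA genes known from the retina and its pigment epithelium (y axis, 1 row per gene). The grey bar is the 75 bp on either side of the middle. No snRNA gene has a dot in the bar, while MIR182 and MIR183 do.

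Within intronic snoRNA genes, the strand of the host went with the density. The 325 genes with a host on the same strand, from whose introns a snoRNA can be cut, carried 1.29 positions per kb in the middle (0.993 to 1.65) and 0.594 in the flanks (0.513 to 0.684), a log2 ratio of 1.12 (0.69 to 1.54). The 143 genes with hosts on the opposite strand only carried 0.746 in the middle (0.426 to 1.21) and 1.03 in the flanks (0.869 to 1.21), a log2 ratio of -0.46 (-1.31 to 0.28). The difference was 1.58 (0.70 to 2.53), and 1.35 (0.47 to 2.30) against the GC expectation. The flank intervals of both classes do not overlap and the middle intervals do.

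From the 5′ end, same-strand intronic snoRNA genes carried 3 positions in the 50 bp before the gene, 0.183 of the GC expectation (0.0378 to 0.536). They carried 62 from 25 to 150 bases in 56 genes, 1.53 per kb (1.17 to 1.96) or 1.38 times the expectation (1.05 to 1.76), and 5 from 150 to 200 bases, 0.299 of it (0.0972 to 0.698). The median length of these genes is 104 bp. Opposite-strand genes carried 14 positions from 25 to 150 bases, 0.920 of the expectation (0.503 to 1.54). For intronic snRNA genes the same-strand ratio (-0.60) exceeded the opposite-strand ratio (-1.29) by 0.68 with an interval that included 0 (-0.06 to 1.46), and for intronic miRNA genes the difference was 0.24 (-0.39 to 0.91). The split by host strand was made after the values were seen.

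**Figure D5:**
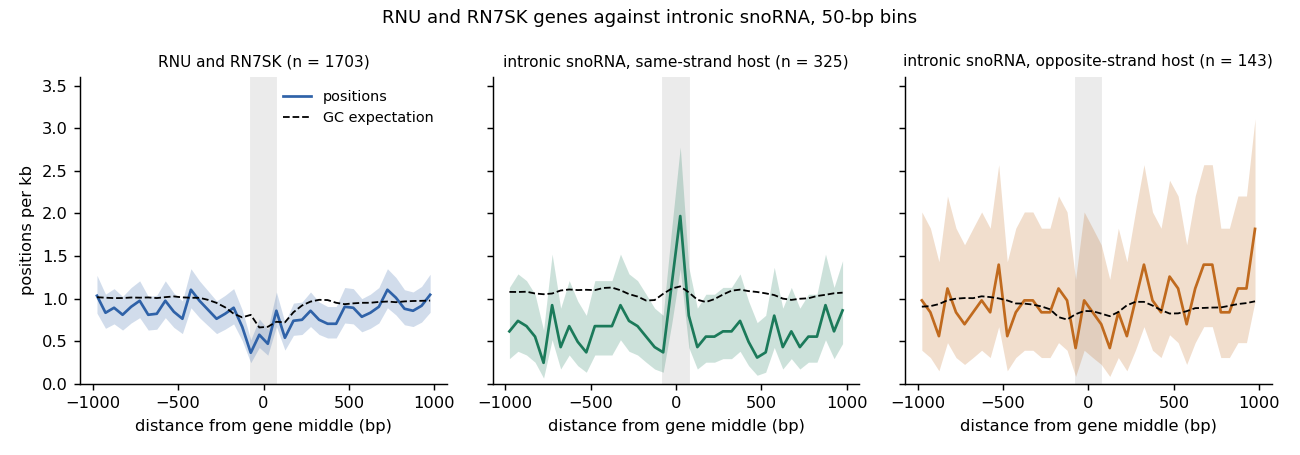
Called positions per kb (y axis) by distance from the gene middle in bp (x axis), in 50-bp bins with 95% Poisson bands, for RNU and RN7SK genes and for intronic snoRNA genes by the strand of their host. Dashed lines are the GC expectation and the grey bar is the middle. Same-strand snoRNA genes reach 1.97 per kb just after the midpoint, where RNU and RN7SK genes have 0.470.

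By class of guide, genes with a SNORD symbol (309, box C/D) had a log2 ratio of 0.61 (-0.03 to 1.20) and those with a SNORA symbol (200, box H/ACA) of 0.64 (-0.03 to 1.27), a difference of -0.04 (-0.94 to 0.88). The 309 snoRNA genes known only by an identifier had a ratio of 0.50 (0.06 to 0.92). SNORD genes were then divided by whether the annotated gene holds both boxes, TGATGA in its first 20 bases and CTGA in its last 20, on its own strand. Both were found in 193 of 309 SNORD genes, or 62.5%, in none on the reverse strand, and in 4 of 9000 windows of the genes' lengths lying 750 bp before or after the 5′ ends. The 193 genes with both boxes carried 0.725 per kb in the middle (0.449 to 1.11) and 0.275 in the flanks (0.206 to 0.359), a log2 ratio of 1.40 (0.60 to 2.16). The 116 others carried 0.460 (0.199 to 0.906) and 0.638 (0.501 to 0.801), a log2 ratio of -0.47 (-1.74 to 0.58). The flank intervals of both sets do not overlap and the middle intervals do. A position in the middle was found in 8.81% of genes with both boxes (5.57 to 13.7%) and 6.03% of the others (2.95 to 11.9%). Of all 150-bp windows, 12.7% held one.

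The difference between SNORD genes with and without both boxes was 1.87 (0.50 to 3.36), and 1.81 (0.44 to 3.30) against the GC expectation, and was chosen after the values were seen. It rests on 21 and 8 positions in the middles. Outside the SNORD clusters of chromosomes 14 and 15 it was 2.76 (0.96 to 4.89), on 15 and 4 positions. The genes with both boxes that held a position in the middle include SNORD53 and SNORD67 with 2 each, SNORD7 with 3, and SNORD94, SNORD96A, SNORD102, SNORD59A, SNORD18B and SNORD17 with 1 each.

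By host gene, 55 snoRNA genes in same-strand ribosomal protein genes carried 0.485 per kb in the middle (0.132 to 1.24) and 0.400 in the flanks (0.251 to 0.606), a log2 ratio of 0.28 (-1.72 to 1.84). The 51 in hosts named SNHG, small nucleolar RNA host genes, without SNHG14, carried 0.654 (0.212 to 1.53) and 0.275 (0.150 to 0.461), a ratio of 1.25 (-0.58 to 2.81). The 84 in SNHG14, the host on chromosome 15, had 3 positions in the middle and 7 in the flanks, a ratio of 1.51 (-1.07 to 3.65). The 46 in MEG8, on chromosome 14, had 7 and 24, a ratio of 0.96 (-0.50 to 2.22). The 313 in other same-strand hosts had a ratio of 1.01 (0.56 to 1.44). This largest class was the only one of these host classes whose interval excluded 0, and its interval overlapped those of the others. The flanks of the SNHG and ribosomal protein hosts were sparser than those of snoRNA genes without a same-strand host, which carried 0.922 per kb (0.823 to 1.03).

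Clusters of at least 10 genes of 1 type, each within 10 kb of the next, were found 6 times. The imprinted SNORD113 and SNORD114 cluster (45 genes, chr14:100924824-100998541) held 35 positions, or 0.475 per kb (0.331 to 0.660), against 1.41 in the 200 kb on either side, which include a neighbouring cluster where there is one. Against the GC expectation the cluster stood at 1.20 (0.834 to 1.67) and its sides at 0.996. The miRNA cluster just after it, MIR379 to MIR656 (42 genes, chr14:101022066-101066801), held 71 positions, or 1.59 per kb (1.24 to 2.00), 0.965 of the GC expectation (0.753 to 1.22). Both clusters of this locus were thus at the density expected from their GC content.

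The SNORD clusters of chromosome 15, imprinted and deleted in Prader-Willi syndrome, were sparse. The SNORD116 cluster (31 genes, chr15:25041974-25108352) held 1 position in 66.4 kb, 0.0107 of the GC expectation (0.00027 to 0.0594), and its sides stood at 0.114 of it. The SNORD115 cluster (44 genes, chr15:25170723-25250940) held 26 positions, or 0.324 per kb (0.212 to 0.475), 0.179 of the expectation (0.117 to 0.262), and its sides stood at 0.0539. Both clusters lay inside a wider stretch with few calls, and the sides of each take in the other. SNORD115 was denser than its sides. The sides of SNORD116 held 45 positions, among them the 26 of SNORD115, so SNORD116 cannot be called sparser than the rest of its surroundings. The unique share of the middles was 64.3% for SNORD115 and 68.3% for SNORD116. The part of repeated sequence in these low counts was not tested.

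A cluster of 10 snoRNA genes that ends with SNORA40 (chr11:93721542-93735236) held 2 positions, 0.221 of the GC expectation (0.0268 to 0.798), against 0.887 in its sides. The primate miRNA cluster of chromosome 19, MIR512-1 to MIR519A2 (46 genes, chr19:53666679-53762430), held 99 positions, or 1.03 per kb (0.840 to 1.26), 0.698 of the expectation (0.567 to 0.850), close to the 0.610 of its sides. Of its 46 genes, 28 had a position within 500 bp, a count with no genome-wide share to set beside it.

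Some miRNAs known from the retina and its pigment epithelium were looked at by name. Their mature 5′ strands, or the single mature strand for miR-184, are printed from RefSeq (GRCh38.p14) with the seed, bases 2 to 8, in capitals. Of the 1759 miRNA genes, 1601 matched that table by symbol. miR-204-5p and miR-211-5p share the seed UCCCUUU, while those of miR-96-5p and miR-182-5p, UUGGCAC and UUGGCAA, are not identical.
miR-204-5p: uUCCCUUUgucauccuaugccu
miR-211-5p: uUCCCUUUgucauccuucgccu
miR-96-5p: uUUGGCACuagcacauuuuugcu
miR-182-5p: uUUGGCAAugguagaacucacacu
miR-183-5p: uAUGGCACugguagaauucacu
miR-184: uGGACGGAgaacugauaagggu

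MIR204, in an intron of TRPM3 (chr9:70809975-70810084), had 1 position within 1000 bp, at -959 bp from its middle. MIR211, in an intron of TRPM1 (chr15:31065032-31065141), had none. Both are miRNAs of pigmented cells, and both middles were 100% unique. MIR182, MIR96 and MIR183, the sensory miRNA cluster on the minus strand of chromosome 7 (chr7:129770383-129775014), had 6, 6 and 5 positions within 1000 bp, and MIR184 (chr15:79209788-79209871) had 6. The windows of MIR96 and MIR183 overlap and share positions. MIR182 had a position 3 bp before its middle and MIR183 one 64 bp before, while the nearest to MIR184 lay 120 bp after. GC expectations within 500 bp ran from 1.22 for MIR211 to 1.68 for MIR182, against counts of 0 for MIR204 and MIR211 and 4 for each of the other genes. Counts this small carry a wide counting error for any 1 gene.

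The genes with the most positions within 500 bp were also listed for each type. Among miRNA genes they were MIR1299 with 14 (chr9:40929010-40929092), MIR4477B with 12 (chr9:63819574-63819654), MIR4261 with 9 in an intron of RRM2, MIR4486 with 7 in an intron of NAV2 and MIR5572 with 7 in ARNT2. MIR4477B had no unique base in its middle and MIR1299 was wholly unique there. Among snRNA genes RNU1-51P had 12 (chr4:189709539-189709714), followed by RNVU1-18 and RNU7-182P with 6 each and RNU7-54P and RNU6-1197P with 5 each. The middle was 0% unique in RNVU1-18, 70% in RNU1-51P and 100% in the other snRNA genes listed. Among snoRNA genes a U3 copy had 7 (chr2:240289216-240289443), ENSG00000212228 in RMI2 had 6, and RNU105C, ENSG00000239197 and SNORD3P1 had 5 each. Among scaRNA genes SCARNA5 and ENSG00000252722 had 4, and ENSG00000252409, ENSG00000252691 and SCARNA17 had 3. These genes are listed because their counts are the highest, so the counts are a description.

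Before and after the gene, positions in the 250 bp next to the 5′ end were set against those next to the 3′ end, and the interval of each of the 4 types included 0. The log2 ratio of upstream to downstream density was 0.02 for snoRNA (-0.34 to 0.38), 0.04 for miRNA (-0.15 to 0.23), -0.06 for snRNA (-0.29 to 0.17) and -0.05 for RNU and RN7SK genes (-0.28 to 0.19). For scaRNA genes it was 1.32 (-0.13 to 2.98), on 15 and 6 positions. Without chromosome 14 or 18 the scaRNA interval excluded 0, at 1.58 (0.05 to 3.40) and 1.81 (0.14 to 3.87). Without genes within 1000 bp of a protein-coding start the scaRNA values were the same as without chromosome 18, at 1.81 (0.14 to 3.87). Against the GC expectation the scaRNA ratio was 1.05, with an interval that included 0 (-0.40 to 2.70).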

How the data were processed

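MNase-seq was done on interphase ARPE-19 cells (digested 5 min at 37 °C, with 150-bp DNA cut from a gel), per the labels' protocols. The authors deposited 1 list of positions, each 1 bp wide, with no score or height. The list does not name a batch, and pooling, caller, threshold and depth are not given in the sources used here. Alignment with Bowtie2 to hg38 is per the submitters' processing notes.

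Repeated positions were removed. Genes came from GENCODE 44 and were oriented by strand. Densities have exact Poisson intervals, log2 ratios exact conditional intervals, differences of log2 ratios conditional exact odds-ratio intervals and shares Wilson intervals, all at 95%. The interval code was checked on simulated independent Poisson counts, which cannot show how the intervals behave where real positions depend on each other. The GC expectation of a base is the density over chromosomes 1-22 at its GC content in the 200 bp around it, in steps of 2%. A base was called unique when the 50-base ends of a 150-bp fragment centred on it each occur once. With 1 list there is no test and no p-value. Named genes were fixed lists (polymerase II and III snRNA, snoRNA host classes, clusters of at least 10 genes, miRNAs known from the retina and pigment epithelium) and the 5 genes of each type with the most positions within 500 bp. Genes, lists and windows were chosen with earlier results of these data known. Positions outside chromosomes 1-22 entered no comparison. The sequence of a U6 gene is not reported here. Alternatives were GC expectation, window sizes, merging positions under 100 bp apart, gene subsets, unique bases, host classes from canonical exons and leaving out each chromosome. Python 3.11.15, numpy 2.4.6, scipy 1.17.1, pandas 2.3.3, numba 0.67.0 and matplotlib 3.10.9 were used.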

Additional observations from a re-analysis of the deposited data

Results flagged for a closer look

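The list held 75853 rows outside chromosomes 1-22, which entered no comparison, and 74465 of them lie on chromosome X. Around the 249 small noncoding RNA genes of these types on chromosome X, 298 positions were counted within 1000 bp of the middle, or 0.598 per kb. They are given because no comparison above uses them, and they were not set against the other chromosomes. No group of samples was large enough to search for an outlying sample.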

How the results depend on the processing

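No paired analysis was possible because the list names no batch, and for the same reason no batch was left out. Of 271 values under other settings for 34 results, 257 stayed within the interval of the reported value, 14 did not, and 0 of the values whose reported interval excluded 0 changed sign. Leaving out each chromosome gave 660 values, all within those intervals. Against the GC expectation the log2 ratio of snRNA genes was -0.12, of RNU and RN7SK genes -0.075 and of RNU6 copies -0.26, with intervals that then included 0. It was -0.35 for intronic snRNA genes and 0.16 for intergenic ones, whose reported ratio of -0.25 was below 0 with an interval that included it. The difference of RNU and RN7SK genes from intronic snoRNA genes was -0.68 against the GC expectation, and that of RNU1 from RNU6 copies 1.05. With a middle of 50 bp on either side, the difference from intronic snoRNA genes was -1.71 and the RNU6 ratio -1.345, and the cause was not tested. The share of genes with a position moved with the size of the middle, as more bases hold more positions: with 50 bp on either side it was 11.2% for snoRNA, 10.7% for miRNA and 4.67% for snRNA genes, and with 100 bp it was 18.0% for miRNA and 10.1% for snRNA genes.

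The miRNA interval excluded 0 with the 50-bp middle, at 0.25 (0.04 to 0.46), and without chromosome 4, 9, 12, 14 or 15, within a range of 0.11 to 0.21 over all chromosomes. With merged positions the miRNA ratio was 0.04 (-0.16 to 0.24). The intergenic snoRNA interval included 0 with a 100-bp middle, at 0.38, and with flanks of 200 to 500 bp, at 0.57. The intergenic snRNA interval excluded 0 with the 50-bp and 100-bp middles, at -0.55 and -0.35. The difference of intronic from intergenic snRNA genes was -0.42 with the 50-bp middle and -0.36 with the nearer flanks, with intervals that included 0. Over the chromosomes left out, the snoRNA ratio ran from 0.62 to 0.76, the snRNA ratio from -0.63 to -0.50, the host-strand difference from 1.43 to 1.92 and the difference by boxes from 1.47 to 2.83, the last without chromosome 15. The depth of the list is unknown, and sets with few positions, such as scaRNA genes and SNORD genes without both boxes, have the widest intervals.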
